A study of Schizosaccharomyces pombe with 6 samples.

Results

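Transcript levels of 10 genes of glycolysis in the fission yeast *Schizosaccharomyces pombe* are described here: *hxk1*, *hxk2*, *fba1*, *tpi1*, SPBC32F12.11, SPBC354.12, *pgk1*, *gpm1*, *eno101* and *eno102*. They are 10 of the 7008 genes listed, and were chosen by gene name and identifier. The choice was also made with measured values in view, because SPBC32F12.11 and SPBC354.12, the 2 copies of glyceraldehyde-3-phosphate dehydrogenase (GAPDH), had differed in cells without *mas5*; that difference is therefore given as a description. The reference annotation names SPBC32F12.11 *tdh1* and SPBC354.12 *gpd3*, and these names are used below. All 10 genes were above 0 FPKM in every library, as were 6242 of the 7008 genes.

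The study asked how the Hsp70 chaperone Ssa2 and its Hsp40 partner Mas5 bear on transcription by the heat shock factor Hsf1. RNA was sequenced from wild type cells held for 15 min at 36°C after growth at 24°C, from *mas5D* and *ssa2D* deletion strains at 24°C, and from wild type cells at 24°C, all in the rich medium YES. It was also sequenced from *nmt1-hsf1* cells, in which the strong thiamine-repressed *nmt1* promoter drives *hsf1*, and from wild type cells, both at 24°C in minimal medium without thiamine (MM). The paper took the *nmt1-hsf1* cells when most of them grew at a single cell tip. It reports that cells with high Hsf1 levels eventually stopped growing. Each condition was 1 library, so no difference below has a replicate check and no p-value is given. The first 3 conditions were compared with the same wild type library in YES, which is therefore not independent between them. Values are FPKM, which are fragment counts corrected for transcript length and for library size, and they were compared only within a table of 2 libraries. A log2 ratio is that of the condition over its wild type, and a ratio past 2-fold lies above 1 or below -1.

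Glycolysis breaks glucose down to pyruvate and yields ATP and NADH. Hexokinase traps glucose in the cell, aldolase and triosephosphate isomerase make triose phosphates, and GAPDH, phosphoglycerate kinase, phosphoglycerate mutase and enolase carry these on towards pyruvate. In yeasts growing on glucose the mRNAs of these enzymes are among the most abundant of the cell, and several steps have more than 1 gene for the same reaction.

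The sequences of the GAPDH copies are shown first, because they decide how far reads can tell these genes apart. In the RefSeq assembly ASM294v3, *tdh1* lies on the plus strand at chrII:2807595-2809051 in 1 exon, and *gpd3* on the plus strand at chrII:578117-580056 in 2 exons, with its whole coding sequence in 1 of them. Their coding sequences have 1011 and 1008 bases, and 940 of 1008 aligned bases were the same (93.3%). The longest stretch they share without a difference is 203 bases and starts at base 577 from the start codon in both. In it, the capitals mark the site of the forward primer with which the study quantified both copies together by PCR.
shared stretch of *gpd3* and *tdh1*: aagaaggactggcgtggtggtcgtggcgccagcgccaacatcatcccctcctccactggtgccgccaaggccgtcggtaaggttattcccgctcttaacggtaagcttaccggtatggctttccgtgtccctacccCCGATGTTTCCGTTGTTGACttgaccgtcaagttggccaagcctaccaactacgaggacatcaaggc
forward primer: ccgatgtttccgttgttgac
reverse primer: acgagcttgacgaattgagg
Both primers matched *gpd3* and *tdh1* with 0 mismatches, at bases 713 to 732 and 913 to 932 from the start codon, and the 220 bases between their outer ends differed at 6 positions. A read length of 50 bases was used in the study. Of the 1348 positions at which such a read can start in the *gpd3* transcript, 234 (17.4%) also occur in *tdh1* without a mismatch. Reads that differ at a few bases were not counted, and the mismatches allowed in the study's alignment are not stated. The median identity of 50-base windows of the 2 coding sequences was 96%. The other gene pairs are further apart. The coding sequences of *eno102* and *eno101* were 63.8% identical and those of *hxk1* and *hxk2* 58.7%, with 0 read positions shared in either pair.

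**Figure D1:**
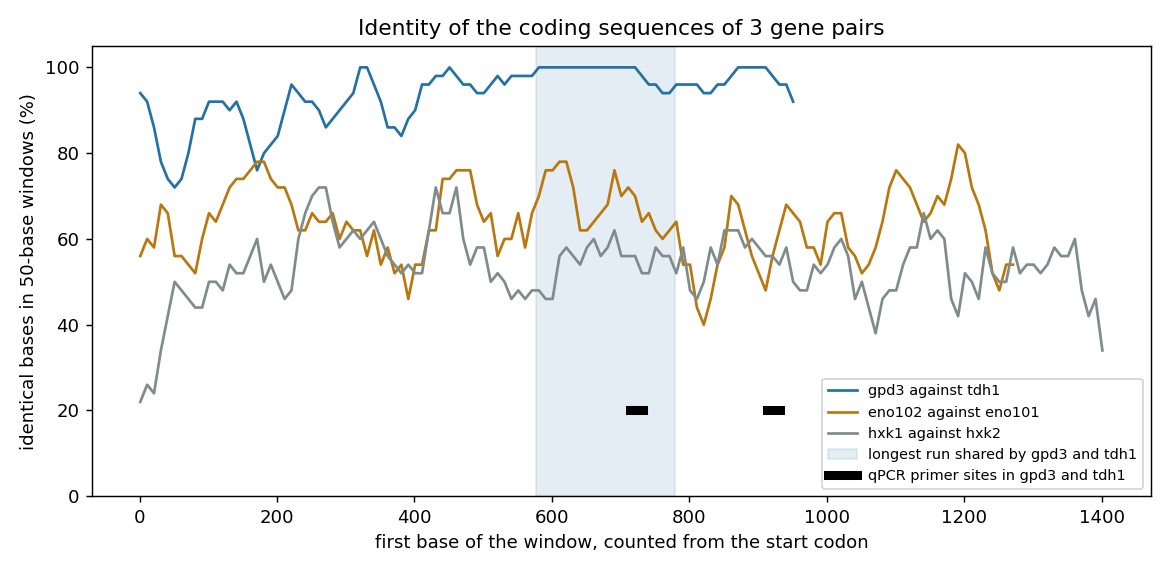
Percent of identical bases in windows of 50 bases along the aligned coding sequences of 3 gene pairs, plotted against the first base of the window from the start codon. The *gpd3* and *tdh1* line runs between 72% and 100%, and the enolase pair runs between 40% and 82%; the shaded band is the 203-base shared stretch and the black bars are the primer sites.

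The regions upstream of the copies are not alike. Over 250 bases before the transcript start, the longest run that *gpd3* and *tdh1* share is 9 bases. These 250 bases are printed for both copies, where the capitals mark TATAAA, and for *fba1*, the gene with the lowest ratio in *nmt1-hsf1* cells, where they mark the letters TTCNNGAA.
*gpd3*, chrII:577867-578116, plus strand: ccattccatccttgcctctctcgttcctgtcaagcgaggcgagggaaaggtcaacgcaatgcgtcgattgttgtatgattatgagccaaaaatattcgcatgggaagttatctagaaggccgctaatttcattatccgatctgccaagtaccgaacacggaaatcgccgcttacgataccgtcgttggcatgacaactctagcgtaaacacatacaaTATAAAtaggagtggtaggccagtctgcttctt
*tdh1*, chrII:2807345-2807594, plus strand: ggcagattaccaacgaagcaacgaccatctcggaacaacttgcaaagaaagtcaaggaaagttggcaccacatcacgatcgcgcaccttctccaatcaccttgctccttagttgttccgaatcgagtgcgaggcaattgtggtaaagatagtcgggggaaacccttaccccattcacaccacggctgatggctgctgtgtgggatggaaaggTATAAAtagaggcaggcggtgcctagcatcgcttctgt
*fba1*, chrII:1688071-1688320, plus strand: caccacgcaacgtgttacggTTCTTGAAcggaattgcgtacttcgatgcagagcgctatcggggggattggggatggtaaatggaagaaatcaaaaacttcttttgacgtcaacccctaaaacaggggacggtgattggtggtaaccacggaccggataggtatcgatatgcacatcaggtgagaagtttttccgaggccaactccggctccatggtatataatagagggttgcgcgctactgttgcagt
Hsf1 binds heat shock elements, which are built of alternating GAA and TTC units. A pair of such units (GAANNTTC or TTCNNGAA, searched on both strands) was found in 3 of the 10 upstream regions, those of *hxk1*, *fba1* and *gpm1*, and in 16.7% of 5123 upstream regions of the same length. A run of 3 units was found in 0 of the 10 and in 0.41% of all. The letters TATAAA on the gene's own strand were found in 6 of the 10 and in 27.6% of all. TGACGT, searched on both strands, was found in *fba1*, where 2 matches overlap on opposite strands, and in *pgk1*, against 5.50% of all. A match is only a match of letters, and a missing match says nothing about binding outside these windows.

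The library labels were checked with the genes they name. The *mas5* transcript stood at 36.3 FPKM in *mas5D* cells, against 470.3 FPKM in wild type, and *ssa2* at 55.0 FPKM in *ssa2D* cells, against 2960.5 FPKM in wild type. The *hsf1* transcript stood at 922 FPKM in *nmt1-hsf1* cells, against 93.4 FPKM in wild type. The chaperone gene *hsp104* had 2907 FPKM after the shift to 36°C, against 43.2 FPKM at 24°C. Its level was 526 FPKM in *mas5D* and 1000.1 FPKM in *ssa2D* cells, against 48.7 and 43.9 FPKM in wild type of these tables. In *nmt1-hsf1* cells *hsp104* had 279.5 FPKM, against 208 FPKM in wild type in MM, a log2 ratio of 0.43, while *hsp16*, a small heat shock protein gene, had a log2 ratio of 6.23. Wild type was assumed to be the first of the 2 columns for *nmt1-hsf1*, as elsewhere, and the high *hsf1* value lies in the other column.

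Counted together, 3 of the 10 genes were past 2-fold up after heat stress (*gpd3*, *pgk1* and *eno102*), beside 14.1% of 6426 genes, and 0 were past it down, beside 10.3%. In *mas5D* cells 1 gene was past 2-fold up, *gpd3*, beside 7.25% of 6465 genes, and 0 down, beside 5.15%; this contrast served to choose the members and nothing is read from it. In *ssa2D* cells 3 genes were past 2-fold up, the same 3 as after heat stress, beside 10.9% of 6420 genes, and 0 down, beside 4.14%. In *nmt1-hsf1* cells 1 gene was past 2-fold up, beside 27.1% of 6335 genes, and 3 were past it down (*fba1*, *tpi1* and *tdh1*), beside 16.7%. All 10 members code for proteins. Over protein-coding genes alone the shares up were 10.8% after heat stress, 4.65% in *mas5D*, 7.39% in *ssa2D* and 22.0% in *nmt1-hsf1* cells, and the shares down 9.46%, 3.89%, 2.32% and 16.7%. The median log2 ratio of the members was 0.19 after heat stress, 0.22 in *mas5D*, 0.27 in *ssa2D* and -0.72 in *nmt1-hsf1* cells. Over all genes it was 0.01, 0.04, 0.05 and 0.09. Together the 10 genes held 3.73% of the FPKM sum after heat stress, 4.51% in *mas5D* and 4.41% in *ssa2D* cells, against 3.25% in wild type in YES. They held 3.30% in *nmt1-hsf1* cells, against 4.61% in wild type in MM.

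**Figure D2:**
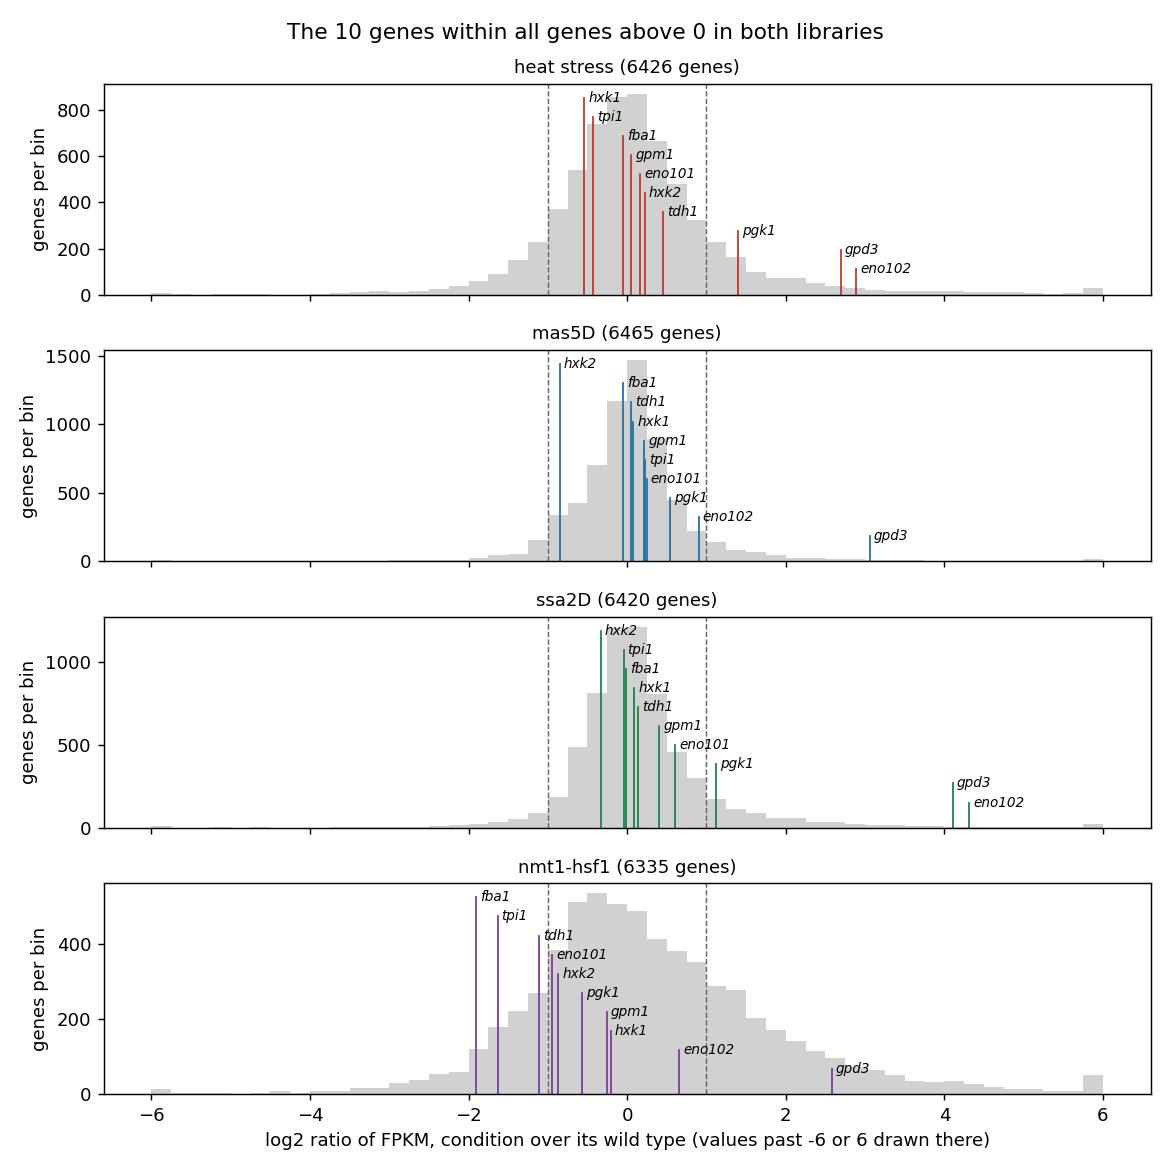
Number of genes per bin of 0.25 log2 units for all genes above 0 in both libraries (grey), with the 10 members as coloured lines whose height has no meaning; dashed lines mark 2-fold. In the heat stress, *mas5D* and *ssa2D* panels 7, 9 and 7 members lie between the dashed lines, and in the *nmt1-hsf1* panel 6.

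The lower values in *nmt1-hsf1* cells depend on what they are set against. Over the 1396 genes that averaged 100 FPKM or more the median log2 ratio was -0.53 in that table, and the actin gene *act1* had 1588 FPKM in *nmt1-hsf1* cells, against 2689 FPKM in wild type, a log2 ratio of -0.76. Relative to that median, *fba1* and *tpi1* stayed past 2-fold down, beside 8.71% of all genes, and *tdh1* did not, at -0.58. Past 2-fold up were *gpd3*, at 3.11, and *eno102*, at 1.19, beside 39.3% of all genes. Relative to *act1*, *fba1* alone stayed past 2-fold down, at -1.15, *tpi1* stood at -0.87, *tdh1* at -0.35, and the members' median at 0.04. The log2 ratio of *gpd3* was then 3.34, and *eno102* also passed 2-fold, at 1.42. On that scale 45.3% of all genes were past 2-fold up and 6.05% down. The direction of *pgk1*, *gpm1* and *hxk1* turned relative to *act1*, with 0.19, 0.51 and 0.55. In *ssa2D* cells, where *act1* had a log2 ratio of 0.37, *pgk1* relative to it was 0.74 and no longer past 2-fold.

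**Figure D3:**
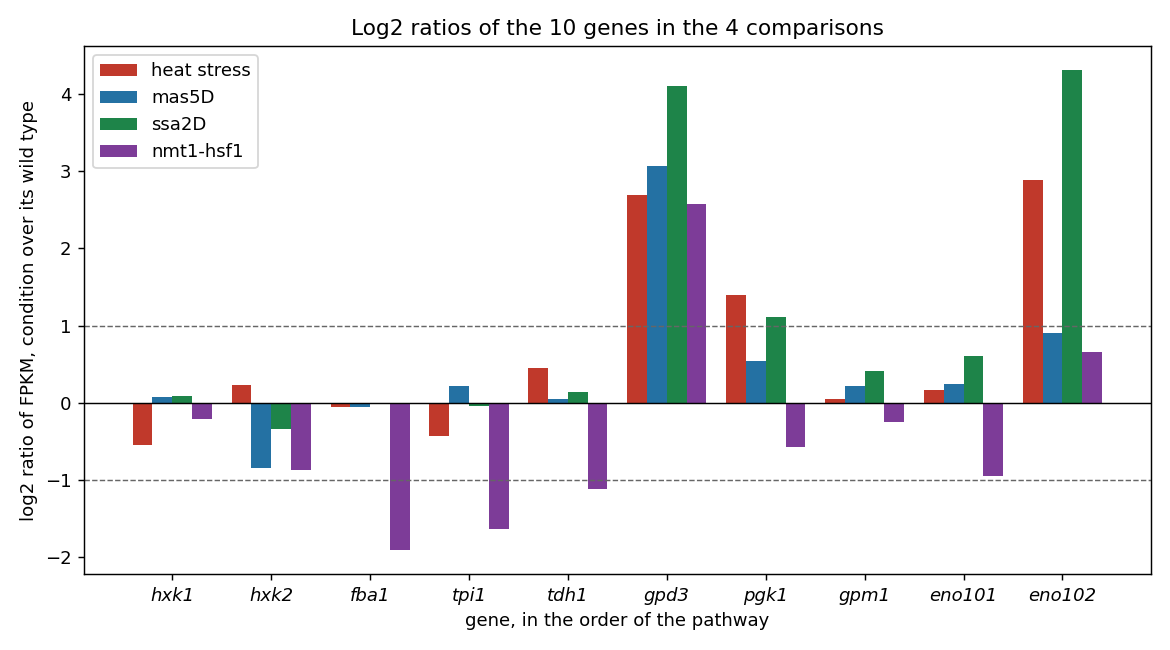
Log2 ratio of FPKM, condition over its wild type, for the 10 genes in the order of the pathway; dashed lines mark 2-fold, and each bar rests on 1 library per group. The 4 bars of *gpd3* run between 2.58 and 4.11, and those of *fba1* lie at -0.05, -0.05, -0.01 and -1.91.

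*gpd3*, the minor GAPDH copy, was more than 2-fold above wild type after heat stress and in *ssa2D* and *nmt1-hsf1* cells. It was so in *mas5D* cells too, which is a description, since values of that comparison entered the choice of the genes. The heat stress and *ssa2D* ratios use the same wild type library as *mas5D*, so they are not independent of that choice. After heat stress *gpd3* had 425 FPKM, against 65.6 FPKM in wild type, a ratio of 6.48-fold. In *ssa2D* cells it had 1148 FPKM, against 66.6 FPKM in wild type, which was 17.2-fold and the largest of its ratios. In *mas5D* cells it had 617 FPKM, against 73.9 FPKM in wild type, or 8.35-fold. The 3 wild type values here are 1 library scaled differently in each table. In *nmt1-hsf1* cells it had 1469 FPKM, against 246 FPKM in wild type in MM, or 5.98-fold. These are log2 ratios of 2.70, 4.11, 3.06 and 2.58. After heat stress 189 genes had a higher ratio, in *ssa2D* cells 53 and in *nmt1-hsf1* cells 490. Of 6242 genes with a ratio in all 4 comparisons, 106 (1.70%) were past 2-fold up in all 4. The *mas5D* comparison is among these 4, so the place of *gpd3* among the 106 genes is a description.

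*tdh1*, the major GAPDH copy, stayed within 2-fold of wild type in the 3 comparisons in YES and was lower in *nmt1-hsf1* cells. It had 7720 FPKM after heat stress, against 5642 FPKM in wild type, a log2 ratio of 0.45. In *mas5D* cells it had 6555 FPKM, against 6353 FPKM in wild type, a log2 ratio of 0.05. In *ssa2D* cells it had 6296 FPKM, against 5730 FPKM in wild type, a log2 ratio of 0.14. Its level thus hardly differed between *ssa2D* cells and wild type. The *mas5D* value is a description, and the heat stress and *ssa2D* ratios share its wild type library. In *nmt1-hsf1* cells *tdh1* had 3518 FPKM, against 7589 FPKM in wild type in MM, a log2 ratio of -1.11, which was -0.35 relative to *act1*.

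Since the scaling of a library cancels between 2 genes measured in it, the copies were also set against each other. The share of *gpd3* in the GAPDH total was 5.22% after heat stress, 8.60% in *mas5D* and 15.4% in *ssa2D* cells, against 1.15% in wild type in YES. It was 29.5% in *nmt1-hsf1* cells, against 3.14% in wild type in MM. The shares after heat stress and in *ssa2D* and *nmt1-hsf1* cells lay above both wild type shares. That in *mas5D* cells did too, which is a description, since this comparison entered the choice of the genes. Its wild type library in YES is also the one set against heat stress and *ssa2D*, so these are not independent of the choice. The log2 ratio of *gpd3* exceeded that of *tdh1* by 2.24 after heat stress, 3.02 in *mas5D*, 3.97 in *ssa2D* and 3.69 in *nmt1-hsf1* cells. The sum of both copies, which is what the primers above would read, moved far less. It was 8145 FPKM after heat stress, against 5707 FPKM in wild type, 7172 FPKM in *mas5D* cells, against 6427 FPKM, and 7445 FPKM in *ssa2D* cells, against 5797 FPKM, log2 ratios of 0.51, 0.16 and 0.36. In *nmt1-hsf1* cells the sum was 4986 FPKM, against 7835 FPKM in wild type in MM, a log2 ratio of -0.65. There *gpd3* stood 1223 FPKM higher than in wild type, while *tdh1* fell by 4072 FPKM. Unlike the shares, the sums and these changes depend on the scaling of each library, and they are not given relative to *act1*. The log2 ratio of *act1* was 0.16 after heat stress, -0.01 in *mas5D*, 0.37 in *ssa2D* and -0.76 in *nmt1-hsf1* cells.

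Reads from the shared stretches cannot be assigned to 1 copy, and how they were assigned is not stated. Their part in the values of *gpd3* was not tested. The reference annotation also places a non-coding RNA on the opposite strand over 46.0% of the exonic bases of *gpd3*. That RNA is not among the listed genes, and it is not stated whether reads were counted by strand.

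**Figure D4:**
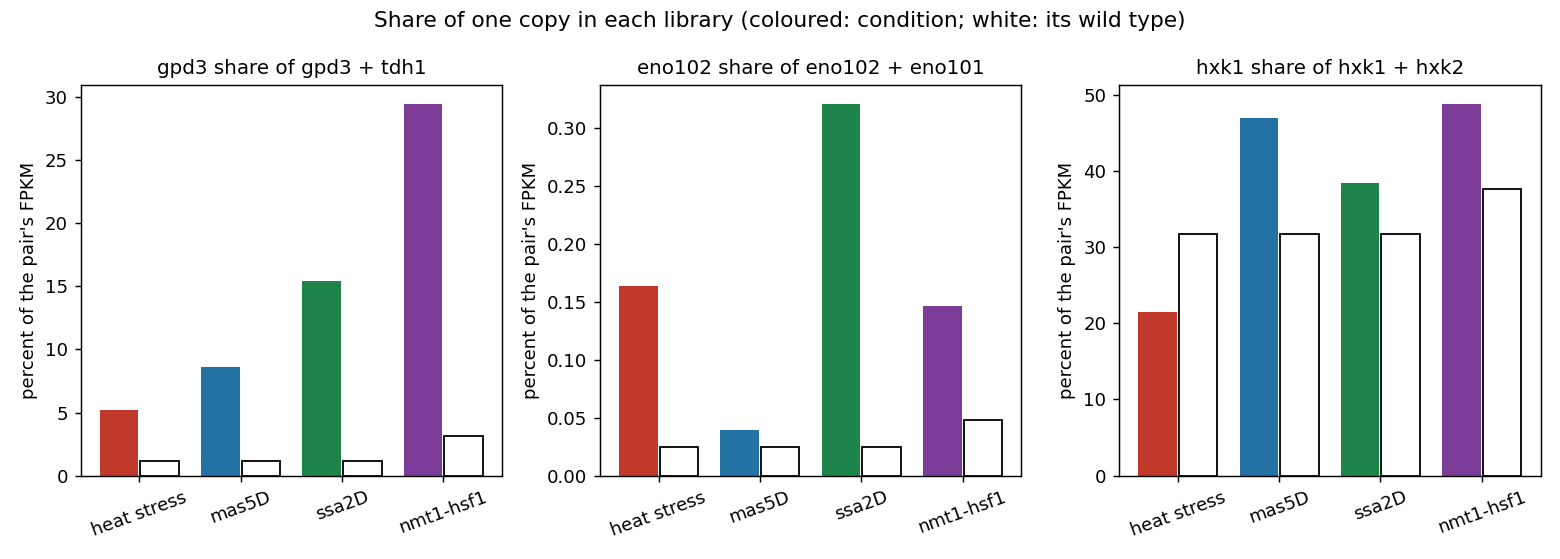
Share of *gpd3* in the GAPDH pair, of *eno102* in the enolase pair and of *hxk1* in the hexokinase pair, in percent of the pair's FPKM (axes differ); coloured bars are the condition and white bars its wild type, 1 library each. The *gpd3* share reaches 29.5% in *nmt1-hsf1* cells, whereas the *eno102* share is at most 0.321%, in *ssa2D* cells.

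The 5 protein-coding genes whose 4 log2 ratios lay nearest to those of *gpd3* were *cmt1*, *zym1*, SPAC15E1.02c, *hsp3101* and SPAC11D3.09, by Euclidean distance among 4459 genes that averaged 10 FPKM or more in each table. Their distances were between 1.58 and 2.36 log2 units over 4 comparisons, 3 of which share a wild type library. *cmt1*, the nearest, had log2 ratios of 2.27 after heat stress, 1.82 in *mas5D*, 3.40 in *ssa2D* and 3.10 in *nmt1-hsf1* cells. It was measured at 273 FPKM after heat stress, against 56.6 FPKM in wild type. *zym1*, the metallothionein gene, had log2 ratios of 2.82, 1.88, 2.62 and 1.82 in the same order.

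The hexokinase genes phosphorylate glucose at the entry of the pathway, and neither passed 2-fold in any comparison. *hxk2* was the higher of the pair in every library. It had 463 FPKM after heat stress, against 396 FPKM in wild type, and 319 FPKM in *ssa2D* cells, against 402 FPKM. In *mas5D* cells it had 247 FPKM, against 446 FPKM in wild type, a log2 ratio of -0.85. Likewise *hxk2* had 261 FPKM in *nmt1-hsf1* cells, against 478 FPKM in wild type in MM, a log2 ratio of -0.87. Relative to *act1* that ratio was -0.11. *hxk1* had the lowest ratio of the members after heat stress, with 126 FPKM, against 184 FPKM in wild type, a log2 ratio of -0.54. Its level was 219 FPKM in *mas5D* cells, against 207 FPKM in wild type, and 199 FPKM in *ssa2D* cells, against 187 FPKM. In *nmt1-hsf1* cells *hxk1* had 249 FPKM, against 287 FPKM in wild type in MM. The share of *hxk1* in the pair was 21.4% after heat stress, 46.9% in *mas5D* and 38.4% in *ssa2D* cells, against 31.7% in wild type in YES. It was 48.8% in *nmt1-hsf1* cells, against 37.6% in wild type in MM. The *hxk1* share was thus lower than in wild type after heat stress and higher in *ssa2D* and *nmt1-hsf1* cells, with 1 library each. It was higher in *mas5D* cells too, which is a description. Non-coding RNAs annotated on the opposite strand cover 90.8% of the exonic bases of *hxk1* and 47.3% of those of *hxk2*, and none of them is among the listed genes.

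*fba1*, which encodes aldolase, and *tpi1*, which encodes triosephosphate isomerase, were near wild type in the comparisons in YES and had the lowest ratios of all members in *nmt1-hsf1* cells. *fba1* had 6300.4 FPKM after heat stress, against 6543 FPKM in wild type, 7104 FPKM in *mas5D* cells, against 7369 FPKM, and 6608 FPKM in *ssa2D* cells, against 6645 FPKM. Its log2 ratios were -0.05, -0.05 and -0.01 in these comparisons, and no other member stayed as near 0 in all 3. Its level in *nmt1-hsf1* cells was 1967 FPKM, against 7382 FPKM in wild type in MM, 3.75-fold lower, with a log2 ratio of -1.91. *tpi1* had 3085 FPKM after heat stress, against 4153 FPKM in wild type, 5460.4 FPKM in *mas5D* cells, against 4677 FPKM, and 4090 FPKM in *ssa2D* cells, against 4218 FPKM. Its log2 ratios there were -0.43, 0.22 and -0.04. *nmt1-hsf1* cells had 1933 FPKM, against 6002 FPKM in wild type in MM, a log2 ratio of -1.63.

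*pgk1*, the phosphoglycerate kinase gene, was past 2-fold in 2 comparisons. After heat stress it had 9130 FPKM, against 3475 FPKM in wild type, 2.63-fold, and became the highest of the 10 genes. In *ssa2D* cells it had 7650.1 FPKM, against 3530 FPKM in wild type, or 2.17-fold. In *mas5D* cells it had 5674 FPKM, against 3914 FPKM, a log2 ratio of 0.54. In *nmt1-hsf1* cells its level was 4809 FPKM, against 7135 FPKM in wild type in MM, a log2 ratio of -0.57. By rank among all listed genes it was 7th after heat stress and 2nd in *ssa2D* cells, against 51st in wild type in YES. A non-coding RNA annotated on the opposite strand covers 100% of the exonic bases of *pgk1* and is not among the listed genes.

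*gpm1*, the phosphoglycerate mutase gene, varied least after the hexokinase *hxk1*, with log2 ratios between -0.25 and 0.41. It had 6578 FPKM after heat stress, against 6338 FPKM in wild type, and 8304 FPKM in *mas5D* cells, against 7139 FPKM. In *ssa2D* cells it had 8530.5 FPKM, against 6437 FPKM in wild type, and was the highest of all listed genes. Its level was 7073 FPKM in *nmt1-hsf1* cells, against 8432 FPKM in wild type in MM.

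Of the enolase genes, *eno101* carried nearly the whole pair. It had 4885 FPKM after heat stress, against 4368 FPKM in wild type, 5832 FPKM in *mas5D* cells, against 4919 FPKM, and 6767 FPKM in *ssa2D* cells, against 4436 FPKM. Its log2 ratios there were 0.16, 0.25 and 0.61. In *nmt1-hsf1* cells it had 3925 FPKM, against 7568 FPKM in wild type in MM, and its log2 ratio of -0.95 lay just inside 2-fold. Relative to *act1* that ratio was -0.19. *eno102* was the lowest gene in every library. It had 8.03 FPKM after heat stress, against 1.08 FPKM in wild type, and 21.8 FPKM in *ssa2D* cells, against 1.10 FPKM, log2 ratios of 2.89 and 4.31. In *mas5D* cells it stood at 2.28 FPKM, against 1.22 FPKM in wild type, a log2 ratio of 0.90. The *nmt1-hsf1* cells had 5.77 FPKM, against 3.66 FPKM in wild type in MM, a log2 ratio of 0.66. Its share of the enolase total was at most 0.321%, in *ssa2D* cells, against 0.0248% in wild type. The non-coding RNA SPNCRNA.1302 lies on the opposite strand over 79.2% of its exonic bases and is listed. This RNA had 18.0 FPKM in *ssa2D* cells, against 7.52 FPKM in wild type, and 12.3 FPKM after heat stress, against 7.40 FPKM. Its level was 11.4 FPKM in *mas5D* cells, against 8.33 FPKM in wild type. In *nmt1-hsf1* cells it was lower than in wild type, with 7.15 FPKM, against 12.7 FPKM in wild type in MM, a log2 ratio of -0.83. The part of its reads in the values of *eno102* was not tested, and the number of reads behind a value near 1 FPKM is unknown.

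**Figure D5:**
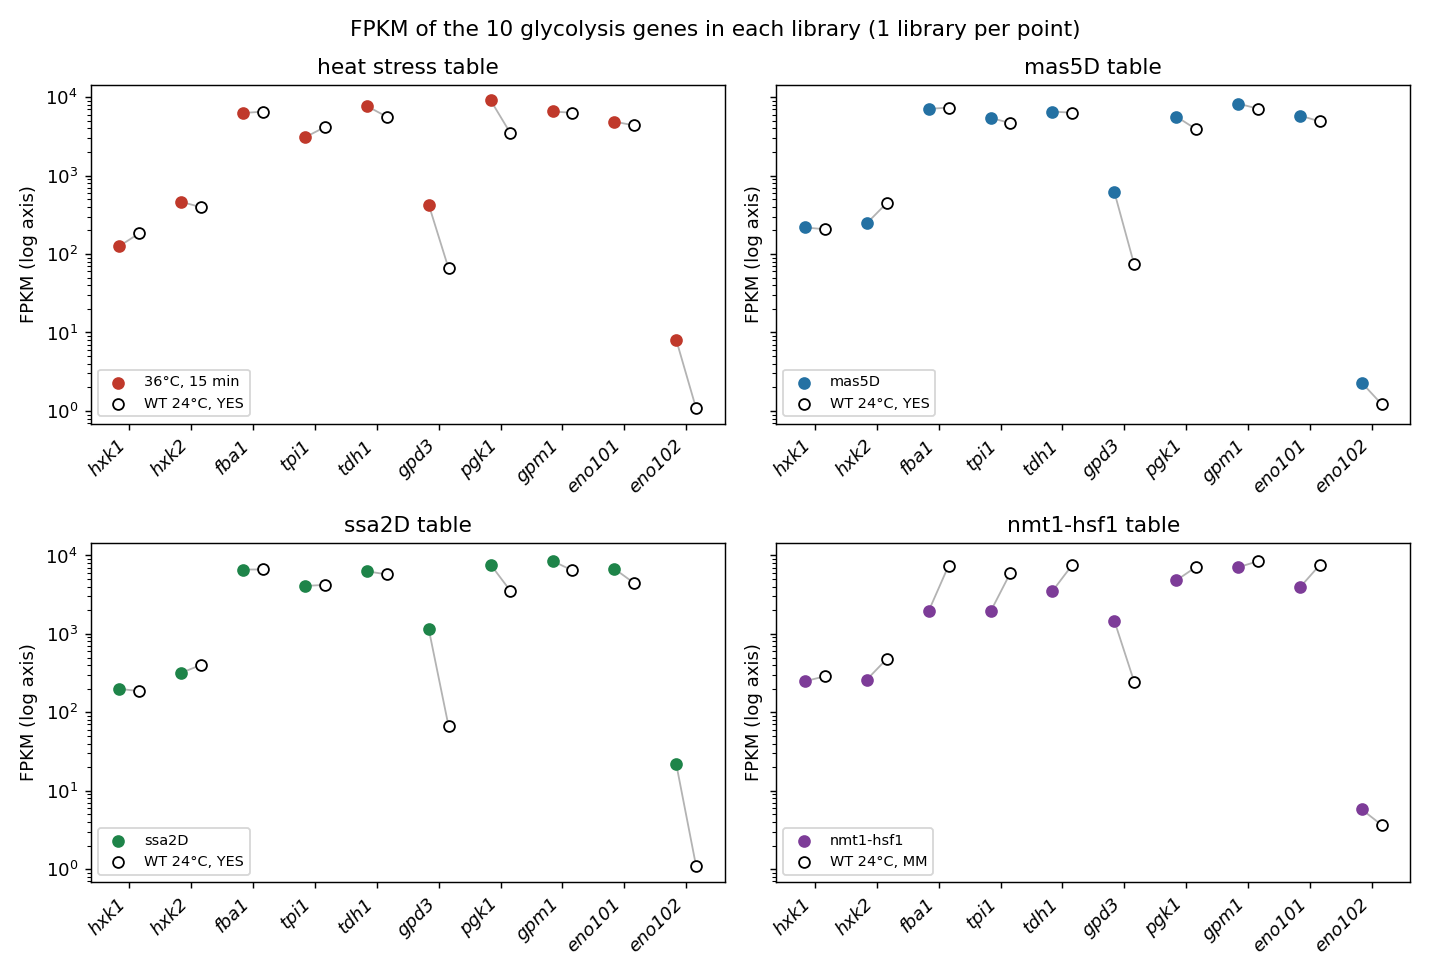
FPKM of the 10 genes on a log axis in the 4 tables; filled points are the condition, open points its wild type, and a line joins the 2 libraries. The filled *gpd3* point lies above the open one in every panel, and *fba1*, *tpi1* and *tdh1* fall below theirs in *nmt1-hsf1* cells.

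Other genes around the pathway were counted in 6 lists of 28 genes, and all 28 had a ratio in every table. After heat stress 6 were past 2-fold up (21.4%, beside 14.1% of all genes) and 2 down (7.14%, beside 10.3%). In *mas5D* cells 4 were up (14.3%, beside 7.25%) and 0 down (beside 5.15%), and in *ssa2D* cells 5 up (17.9%, beside 10.9%) and 1 down (3.57%, beside 4.14%). In *nmt1-hsf1* cells 2 were up (7.14%, beside 27.1%) and 9 down (32.1%, beside 16.7%). Relative to *act1* the counts in *nmt1-hsf1* cells were 7 up, beside 45.3% of all genes, and 1 down, *adh1*, beside 6.05%. The 7 were *pgi1* (1.51), *fbp1* (1.11), *pdc102* (1.61), *pdc202* (3.01), *tal1* (1.13), *gld1* (2.87) and *dak1* (1.69). Without this change of scale, the median of the 28 log2 ratios was 0.24 after heat stress, -0.07 in *mas5D*, 0.50 in *ssa2D* and -0.51 in *nmt1-hsf1* cells.

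Of the 3 other glycolysis steps, the glucose-6-phosphate isomerase gene *pgi1* was past 2-fold after heat stress, with 1963 FPKM, against 721 FPKM in wild type. The pyruvate kinase gene *pyk1*, the last step, had 1208 FPKM in *nmt1-hsf1* cells, against 4027 FPKM in wild type in MM, a log2 ratio of -1.74, or -0.98 relative to *act1*. *pfk1*, which encodes phosphofructokinase, lay within 2-fold in all 4 comparisons. *fbp1*, the gluconeogenic bisphosphatase gene, had 21.3 FPKM in *ssa2D* cells, against 8.88 FPKM in wild type, a log2 ratio of 1.26, or 0.89 relative to *act1*.

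The glycerol branch connects with glycolysis at the triose phosphates, before GAPDH, and its genes act in both directions. Of the 6 listed, 3 were past 2-fold up after heat stress, 4 in *mas5D*, 4 in *ssa2D* and 1 in *nmt1-hsf1* cells. The shares of all genes past it were 14.1%, 7.25%, 10.9% and 27.1%. The glycerol-3-phosphate dehydrogenase gene *gpd1* is not a GAPDH gene despite its name. It had 5575 FPKM after heat stress, against 432 FPKM in wild type, a log2 ratio of 3.69, and its log2 ratios were 1.34 in *mas5D* and 1.60 in *ssa2D* cells. In *nmt1-hsf1* cells it had 886 FPKM, against 1337 FPKM in wild type in MM, a log2 ratio of -0.59, or 0.17 relative to *act1*. The glycerol dehydrogenase gene *gld1* was past 2-fold up in all 4, as were 1.70% of 6242 genes. Its log2 ratios were 2.55, 2.35, 3.36 and 2.11. The first 3 rest on a low level in the same wild type library, between 2.73 and 3.07 FPKM by table, whose read number is unknown. The dihydroxyacetone kinase gene *dak2* differed between conditions: its log2 ratio was -1.41 after heat stress, with 8.90 FPKM, against 23.7 FPKM in wild type, and 2.82 in *ssa2D* cells, with 169.9 FPKM, against 24.0 FPKM. *dak1* had log2 ratios of 1.36 in *mas5D* and 2.26 in *ssa2D* cells. *gut2* was past 2-fold after heat stress, with a log2 ratio of 1.40.

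In the pentose phosphate pathway, 2 of 6 genes were past 2-fold up after heat stress, beside 14.1% of all genes. They were the 2 dehydrogenase genes that make NADPH: *gnd1*, with 4667 FPKM, against 1163 FPKM in wild type, and *zwf1*, with 513 FPKM, against 237 FPKM, which was not past 2-fold relative to *act1* (0.95). None of the 6 was past 2-fold in *mas5D* or *ssa2D* cells, and *rpe1* was in *nmt1-hsf1* cells, with a log2 ratio of -1.14, or -0.38 relative to *act1*. Among the 5 fermentation genes, the alcohol dehydrogenase gene *adh1* had 13.9 FPKM in *nmt1-hsf1* cells, against 1368 FPKM in wild type in MM, a log2 ratio of -6.62, or -5.86 relative to *act1*. After heat stress *adh1* had 902 FPKM, against 1538 FPKM in wild type, a log2 ratio of -0.77. The pyruvate decarboxylase gene *pdc101* had a log2 ratio of -1.64, or -0.88 relative to *act1*, and *pdc202* one of 2.25 in *nmt1-hsf1* cells. *pdc102*, at no more than 1.21 FPKM in any library, was past 2-fold down after heat stress and in *ssa2D* cells. Of the 7 genes that carry pyruvate into mitochondria and turn it into acetyl-CoA, 5 were past 2-fold down in *nmt1-hsf1* cells: *mpc1*, *pdb1*, *lat1*, *dld1* and *pdx1*, with log2 ratios between -1.05 and -1.64, beside 16.7% of all genes. Relative to *act1* none of these 5 was past 2-fold, and their log2 ratios lay between -0.29 and -0.89. None of the 7 was past 2-fold in the other 3 comparisons.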

How the data were processed

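Polyadenylated RNA was sequenced as 6 single-end libraries of 50-base reads, 1 per condition. The submitters' processing notes list FastQC, TopHat and Cuffdiff, and the authors' methods describe FASTQ Groomer, TopHat and Cufflinks in Galaxy; versions, genome build and annotation are not given in the sources used here. The deposited files are 4 Cuffdiff tables of 2 libraries each, and the authors' FPKM values in them were scaled separately per table. The deposited fold change, test statistic, p-value, q-value and significance columns hold the authors' own comparisons and were not used. FPKM carry no counts, so the depth per library and the counting error of a gene are unknown. The p-values of a test across genes need replicates and were not computed.

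Log2 ratios used no pseudocount and only genes whose FPKM exceeded 0 in the 2 libraries of a table, and 2-fold was used as the threshold. The members and gene lists were chosen with earlier results of these data known. Named genes were the members, listed pathway genes past 2-fold or in counts of 5 or fewer, the label checks and the 5 genes nearest to *gpd3*. *gpd1*, *adh1* and *pfk1* are also given where they did not pass 2-fold.

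Sequences and gene models are from RefSeq ASM294v3. Identifiers of 6843 of 7008 genes matched, and the loci in the tables lay within 500 bases of those models for 6836. Primer sequences are the study's. Coding sequences were aligned with Biopython 1.88, and upstream regions are the 250 bases before the annotated transcript start.

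Alternatives were pseudocounts of 0.1 and 1 FPKM, centring on the median of genes that averaged 1 FPKM or more, thresholds of 1.5-fold and 3-fold, means of at least 1 and 10 FPKM, and all genes without non-coding RNAs. Centring on genes of at least 100 FPKM and ratios relative to *act1*, for members and lists, were added after seeing the data. The counting was tested on simulated data. Python 3.11.15, numpy 2.4.6, pandas 2.3.3 and matplotlib 3.10.9 were used.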

Additional observations from a re-analysis of the deposited data

How the results depend on the processing

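The number of members past 2-fold changed by more than 1.5 times at a threshold of 1.5-fold, with 3 in *mas5D* and 7 in *nmt1-hsf1* cells, and with centring on genes of at least 100 FPKM, with 2 in *mas5D* cells. The members' median log2 ratio relative to *act1* was 0.0397 in *nmt1-hsf1* cells, and -0.10 in *ssa2D* cells. Of 200 member values under alternatives 8 changed their side of 2-fold. All are given in the report except *eno101* in *nmt1-hsf1* cells (-1.04, centred on the median) and *eno102* in *mas5D* cells. The latter was 1.09 after centring on genes of at least 100 FPKM. With a pseudocount of 1 FPKM, *eno102* had log2 ratios of 2.12 after heat stress and 3.44 in *ssa2D* cells.

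Over all genes, those past 1.5-fold numbered 2898 for heat stress, 1863 for *mas5D* and 2004 for *ssa2D*, and those past 3-fold 725, 329, 494 and, for *nmt1-hsf1*, 1590. Without non-coding RNAs 1026, 432 and 490 were past 2-fold in the first 3, and with a mean of at least 10 FPKM 397 in *mas5D* and 532 in *ssa2D*. The cause of these shifts was not tested. No paired analysis was possible because each condition has 1 library, and for the same reason no replicate could be left out. Depth is unknown, and values near or under 1 FPKM, as those of *eno102* in wild type and of *pdc102*, have no counting error that could be given.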
